A study of Saccharomyces cerevisiae with 18 samples.

Results

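The ATG genes of the budding yeast Saccharomyces cerevisiae encode most of the machinery of autophagy. Members were chosen by name, as genes whose symbol is ATG followed by a number and that do not lie on chromosome VIII. This gave 33 of the 5449 genes measured, each with 1 probe set, spread over 12 chromosomes. The reference gene table holds 36 such symbols, and 3 of them (ATG42, ATG44 and ATG45) had no probe set here. ATG7, which encodes the activating enzyme of both ubiquitin-like conjugation reactions, lies on chromosome VIII and was left out. The rule itself uses no measured value.

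Autophagy delivers cytoplasm and organelles to the vacuole for breakdown. A membrane cup grows around the cargo, closes into an autophagosome and fuses with the vacuole, and in selective forms a receptor ties a particular cargo, such as a peroxisome or a piece of endoplasmic reticulum, to Atg8 on that membrane. The Atg1 kinase complex starts the process, Atg9 vesicles and a phosphatidylinositol 3-kinase complex supply and mark the membrane, and the Atg8 and Atg12 conjugation reactions expand it. In yeast the pathway runs at a low rate in rich medium and is induced by starvation, under the control of nutrient kinases that include TORC1, protein kinase A and Snf1, the yeast AMP-activated protein kinase (AMPK).

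Transcript levels were measured on 18 Affymetrix arrays, 3 for each of 6 groups made up of 3 strains at 2 glucose levels. All strains lacked chromosomal SNF1 and carried a plasmid, so every group shares that deletion. The reference strain, here Snf1, carried HA-Snf1. The strain Alpha1 carried HA-Alpha1, in which the catalytic domain of the AMPK Alpha1 subunit is joined to the Snf1 regulatory domain. The strain T210A carried HA-T210A, a Snf1 protein in which the activating phosphorylation site Thr210 is alanine. Cells grew aerobically in bioreactors of 1 L at 30 °C and pH 5.0 from 40 g/L glucose. They were sampled at 15 to 20 g/L residual glucose (high) or at 5 g/L (low). The labels call the arrays biological replicates and the cultures steady-state, and the plasmid promoters and the parental strain are not given in the sources used here. Whether high and low glucose samples came from the same cultures is not given either, and the main fit treats all arrays as independent. The p-values measure the spread between these arrays. RNA was taken from whole cultures, so less RNA per cell and a smaller share of cells with that RNA cannot be told apart.

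Values are log2 signals, in which a difference of 1 is a doubling. They ran from 2.25 to 14.3, and a group mean under 3.25, within 1 unit of the lowest signal averaged over arrays, is called close to the floor. The 3 arrays of Alpha1 at low glucose scattered more than those of the other groups. The median SD of the ATG genes there was 0.247, against 0.101 to 0.136 in the other groups, and the first Alpha1 replicate lay a median of 0.26 below its group mean over the members. The SNF1 probe set averaged 12.36 and 12.94 in Alpha1 at high and low glucose and 7.08 to 9.31 in the other groups. That probe set may read plasmid transcripts, so it checks nothing about the deletion. Differences were tested with limma, with p-values adjusted over all genes, and a gene passed at an adjusted p under 0.05. Each value is given as log2 ± SE of the model with n = 3 arrays per group.

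From high to low glucose most ATG transcripts became more abundant in every strain. In Snf1, 24 of the 33 rose and 2 fell, whereas 34.7% of all genes rose and 32.7% fell. In Alpha1, 27 rose and 1 fell, against 34.3% and 29.2% of all genes. In T210A, 26 rose and 1 fell, against 37.7% and 32.8% of all genes. The median difference of the members was 0.97 in Snf1, 0.93 in Alpha1 and 1.10 in T210A, while the median of all genes was 0.0002, 0.03 and 0.04. The same 22 genes rose in all 3 strains, and they included members of the Atg1 complex, of the kinase complex that makes phosphatidylinositol 3-phosphate, of the Atg8 conjugation reaction and all 6 measured cargo receptors. The share of all genes that rose in all 3 strains was not counted. It cannot exceed the 34.3% that rose in Alpha1.

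**Figure D1:**
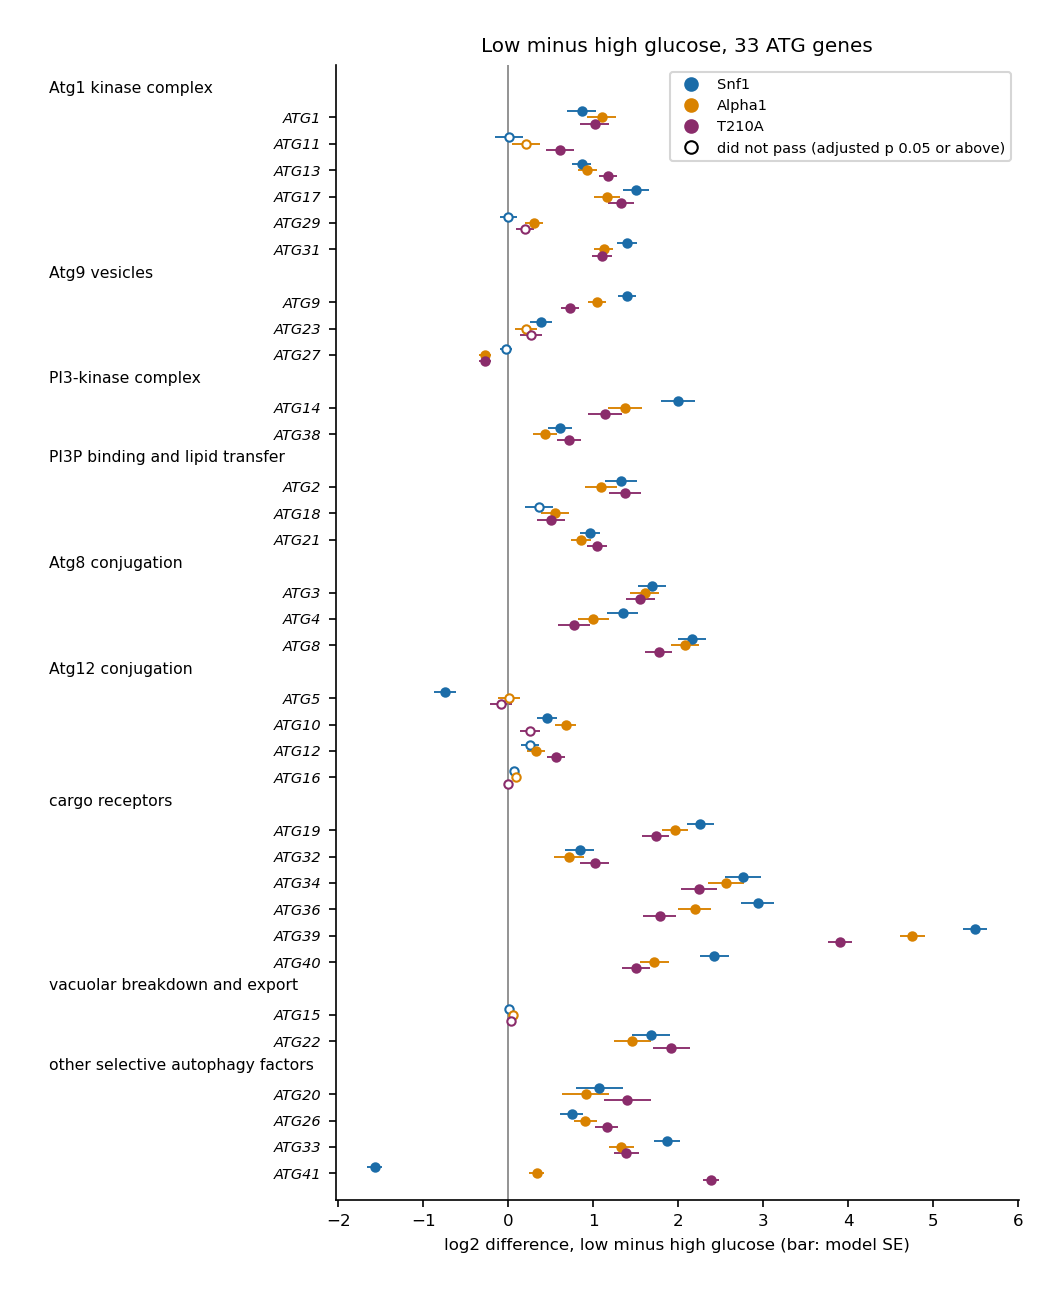
Log2 difference between low and high glucose (x axis) for the 33 ATG genes grouped by role, in Snf1, Alpha1 and T210A. Points are model estimates from 3 arrays per group, bars are the model SE, and open points did not pass the test. Most points lie to the right of 0, ATG39 lies farthest right in every strain, and ATG41 lies on opposite sides of 0 in Snf1 and T210A.

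Of the 6 measured genes of the Atg1 kinase complex, 4 rose in Snf1, 5 in Alpha1 and 5 in T210A, and none fell. ATG1, the kinase itself, read 4.14, 4.51 and 4.23 in Snf1 at high glucose and 4.93, 5.37 and 5.17 at low glucose. In Alpha1 it went from 3.98, 4.42 and 4.31 to 5.18, 5.62 and 5.22, and in T210A from 3.86, 4.23 and 4.05 to 4.95, 5.32 and 4.92. In each strain all low-glucose arrays lay above all high-glucose arrays. The differences were 0.86 ± 0.17 in Snf1 (adjusted p = 4.560e-04), 1.10 ± 0.17 in Alpha1 (6.568e-05) and 1.02 ± 0.17 in T210A (1.126e-04).

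ATG13, the regulatory partner of Atg1 that TORC1 phosphorylates, read 5.15, 5.24 and 5.12 in Snf1 at high glucose and 5.79, 6.29 and 6.03 at low glucose. The Alpha1 arrays were at 5.13, 5.30 and 5.38, then at 6.04, 6.36 and 6.21. The T210A arrays were at 5.28, 5.22 and 5.14, then at 6.33, 6.46 and 6.37. Again the glucose groups did not overlap in any strain, and ATG13 rose by 0.86 ± 0.11, 0.93 ± 0.11 and 1.17 ± 0.11. The scaffold genes ATG17 and ATG31 rose by 1.50 and 1.40 in Snf1, 1.16 and 1.12 in Alpha1, and 1.33 and 1.10 in T210A. ATG11, the scaffold used in selective autophagy, passed only the T210A test, at 0.61 ± 0.16 (adjusted p = 0.00455), and had differences of 0.01 in Snf1 and 0.21 in Alpha1. The difference between these ATG11 responses did not pass in any pair of strains, though for T210A against Snf1 it passed with the replicate number as a block. ATG29, the remaining scaffold gene, was close to the floor in all 6 groups, and its pass in Alpha1 (0.30 ± 0.10, adjusted p = 0.0223) was lost without the second or the third low-glucose array.

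ATG9 encodes the membrane protein of the vesicles that seed the autophagosome, and it rose in all 3 strains. Its arrays read 3.61, 3.90 and 3.76 in Snf1 at high glucose and 5.04, 5.22 and 5.21 at low glucose. In Alpha1 they read 3.88, 3.71 and 3.80, then 4.81, 4.85 and 4.85. In T210A they read 3.35, 3.84 and 3.57, then 4.24, 4.33 and 4.36. At low glucose the 3 strains formed separate groups, highest in Snf1 and lowest in T210A, while at high glucose they overlapped. The differences were 1.40 ± 0.10 in Snf1, 1.04 ± 0.10 in Alpha1 and 0.73 ± 0.10 in T210A, and after quantile normalization the T210A value was 0.22 and did not pass (adjusted p = 0.0689, over alternatives 8.019e-07 to 0.0689). ATG23, needed for Atg9 transport, rose in Snf1 by 0.38 ± 0.13 (adjusted p = 0.0176). That call was lost without the third high-glucose array or without the second or the third low-glucose array, and the values in Alpha1 and T210A were 0.20 and 0.27. ATG27, another Atg9 transport gene, fell by 0.27 in Alpha1 and by 0.27 in T210A and stood at -0.03 ± 0.07 in Snf1. The Alpha1 call, the only fall among the members in that strain, was lost with array weights and when the Alpha1 groups were fitted by themselves (adjusted p up to 0.0692).

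Both measured genes of the autophagy-specific phosphatidylinositol 3-kinase complex rose in all 3 strains. ATG14, the subunit that targets the kinase to the site of autophagosome formation, read 3.20, 3.38 and 3.49 in Snf1 at high glucose and 5.03, 5.58 and 5.46 at low glucose. The Alpha1 values were 3.38, 3.32 and 3.49, then 4.63, 4.76 and 4.93. The T210A values were 3.03, 3.36 and 3.28, close to the floor, then 4.48, 3.85 and 4.76. No low-glucose array overlapped the high-glucose arrays of its strain, and 1 T210A array stood well below the other two. ATG14 rose by 2.0 ± 0.20, 1.37 ± 0.20 and 1.14 ± 0.20. ATG38, which holds that complex together, rose by 0.61, 0.43 and 0.72, and the Alpha1 call was lost without 1 array of either glucose level (the second high, the third low) and under 4 other alternatives, so that it held in 9 of 15. Among the genes for phosphatidylinositol 3-phosphate binding and lipid transfer, ATG2, which transfers lipids to the growing membrane, rose by 1.33, 1.09 and 1.37. ATG21 rose by 0.97, 0.85 and 1.04. ATG18, the partner of Atg2, rose by 0.55 in Alpha1 and 0.50 in T210A and stood at 0.36 ± 0.17 in Snf1 (adjusted p = 0.0683), where it passed with the replicate number as a block. The ATG18 calls were lost without the second low-glucose array in Alpha1 and without the first high-glucose array in T210A.

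All 3 measured genes of the Atg8 conjugation reaction rose in every strain. ATG8, the ubiquitin-like protein that coats the autophagosome, read 7.36, 7.12 and 6.99 in Snf1 at high glucose and 9.47, 9.22 and 9.26 at low glucose. In Alpha1 it went from 7.38, 6.69 and 6.73 to 8.86, 9.06 and 9.11, and in T210A from 7.04, 7.08 and 7.25 to 8.99, 8.74 and 8.94. Every low-glucose array stood more than 1 unit above every high-glucose array. The differences were 2.16 ± 0.16 in Snf1, a 4.47-fold rise, then 2.08 ± 0.16 in Alpha1 (4.22-fold) and 1.77 ± 0.16 in T210A (3.41-fold), with adjusted p of 3.524e-08, 9.158e-08 and 3.930e-07. ATG3, the E2-like enzyme that attaches Atg8 to lipid, rose by 1.69, 1.60 and 1.55. ATG4, the protease that matures and recycles Atg8, rose by 1.35, 1.00 and 0.77, from high-glucose means close to the floor in each strain. ATG7, left out of the counts, is the activating enzyme of this reaction and rose too, by 2.14 ± 0.23 in Snf1, 1.75 ± 0.23 in Alpha1 and 1.06 ± 0.23 in T210A. The smaller T210A rise began from a higher level. The high-glucose means of ATG7 were 4.40 in T210A, 3.60 in Snf1 and 3.59 in Alpha1, and the low-glucose means were 5.46, 5.74 and 5.34. The higher T210A level was not particular to ATG7. The chromosome VIII genes left out of the lists below (NVJ1, DAP2, KOG1, SCH9 and NPR3) also read higher in T210A than in Snf1 at high glucose. For NVJ1 the means were 7.53 and 6.73. The cause was not tested.

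The Atg12 conjugation genes moved less and not in one direction. ATG5, whose product is the target of Atg12, read 7.91, 7.80 and 7.98 in Snf1 at high glucose and 7.05, 7.23 and 7.17 at low glucose. The Alpha1 arrays read 7.57, 7.65 and 7.65, then 7.28, 7.97 and 7.66, and the T210A arrays 7.62, 7.65 and 7.65, then 7.54, 7.40 and 7.71. The Snf1 groups were separate, whereas the glucose groups overlapped in Alpha1 and in T210A. At high glucose the Snf1 arrays lay above those of both other strains, and at low glucose they lay below them. ATG5 fell by 0.75 in Snf1 (SE 0.13, adjusted p = 1.624e-04), and its differences were 0.01 ± 0.13 in Alpha1 and -0.09 ± 0.13 in T210A. ATG10, the E2-like enzyme for Atg12, rose by 0.46 in Snf1 and 0.67 in Alpha1 and stood at 0.26 in T210A. ATG12, the ubiquitin-like protein, rose by 0.33 in Alpha1 and 0.56 in T210A and stood at 0.25 in Snf1, where it passed with the replicate number as a block. The ATG12 call in Alpha1 was lost without the second high-glucose array or without the second or the third low-glucose array. ATG16, which joins Atg12-Atg5 into a larger complex, was close to the floor in all 6 groups and passed no test.

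The 6 measured cargo receptors all rose in all 3 strains, with medians of 2.60 in Snf1, 2.08 in Alpha1 and 1.76 in T210A. ATG39, the receptor for the perinuclear endoplasmic reticulum and nucleus, had the largest response of any ATG gene in each strain. Its arrays read 3.44, 3.57 and 3.41 in Snf1 at high glucose and 9.01, 8.90 and 8.99 at low glucose. In Alpha1 they went from 2.87, 3.23 and 2.97 to 7.57, 7.56 and 8.20, and in T210A from 3.30, 3.11 and 3.30 to 7.15, 7.09 and 7.17. At low glucose the 3 strains did not overlap, and at high glucose all arrays lay between 2.87 and 3.57, those of Snf1 highest. The rise was 5.49 ± 0.14 in Snf1 (45.1-fold, adjusted p = 1.613e-12), 4.75 ± 0.14 in Alpha1 (27.0-fold, 1.208e-11) and 3.90 ± 0.14 in T210A (14.9-fold, 9.926e-11). The Alpha1 and T210A high-glucose means were close to the floor, which limits how far down the signal can be read and so the size of these folds.

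ATG36, the receptor for peroxisomes, read 4.37, 4.29 and 4.25 in Snf1 at high glucose and 7.22, 7.31 and 7.19 at low glucose. In Alpha1 it went from 4.06, 3.87 and 4.03 to 5.60, 6.27 and 6.67, and in T210A from 3.76, 4.01 and 4.12 to 5.75, 5.62 and 5.85. The low-glucose Snf1 arrays lay above all the others, and the Alpha1 arrays spread over 1 unit and overlapped those of T210A. At high glucose too the Snf1 arrays lay above those of both other strains, by less. The rise was 7.64-fold in Snf1 (2.93 ± 0.19), 4.57-fold in Alpha1 (2.19 ± 0.19) and 3.43-fold in T210A (1.78 ± 0.19).

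ATG40, a receptor for the endoplasmic reticulum, read 6.34, 6.73 and 6.37 in Snf1 at high glucose and 8.93, 8.90 and 8.89 at low glucose. The Alpha1 arrays went from 6.64, 6.46 and 6.38 to 7.77, 8.28 and 8.59, and the T210A arrays from 6.24, 6.50 and 6.33 to 7.89, 7.72 and 7.95. At high glucose the strains overlapped, and at low glucose Snf1 lay above both other strains. ATG40 rose by 2.43 ± 0.17, 1.72 ± 0.17 and 1.50 ± 0.17.

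ATG32, the mitochondrial receptor, read 5.30, 5.33 and 5.05 in Snf1 at high glucose and 5.85, 6.31 and 6.03 at low glucose. Its Alpha1 arrays went from 5.07, 5.14 and 5.30 to 5.43, 6.23 and 5.99, and its T210A arrays from 5.18, 5.33 and 5.04 to 6.23, 6.22 and 6.14. The glucose groups were separate in each strain, and the low-glucose groups of the strains overlapped. ATG32 rose by 0.84 ± 0.17, 0.71 ± 0.17 and 1.02 ± 0.17. ATG19, the receptor of the cytoplasm-to-vacuole pathway that carries aminopeptidase 1, rose by 2.26, 1.96 and 1.73. ATG34, its paralog and neighbour on chromosome XV and a receptor for the mannosidase Ams1, rose by 2.76, 2.56 and 2.24.

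Of the genes that act in the vacuole, ATG22, an amino acid exporter, rose by 1.68 in Snf1, 1.46 in Alpha1 and 1.92 in T210A. ATG15, the lipase that opens autophagic bodies, was close to the floor in all 6 groups and passed no test. Among the remaining members, the sorting nexin ATG20 rose by 1.07, 0.91 and 1.40, the sterol glucosyltransferase ATG26 by 0.75, 0.90 and 1.16, and the mitophagy factor ATG33 by 1.87, 1.33 and 1.39. The ATG20 call in Alpha1 was lost without the first low-glucose array.

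ATG41 was the member whose direction differed between strains. The gene, also known as ICY2, encodes a protein that works with Atg9 in autophagosome formation. It read 9.63, 9.75 and 9.66 in Snf1 at high glucose and 8.06, 8.15 and 8.11 at low glucose. In Alpha1 it read 9.57, 9.42 and 9.56, then 9.58, 9.95 and 10.01, and in T210A 9.47, 9.56 and 9.52, then 11.93, 11.81 and 11.96. At high glucose all arrays lay between 9.42 and 9.75, those of Snf1 highest, and at low glucose the strains formed 3 separate groups, lowest in Snf1 and highest in T210A. ATG41 fell by 1.57 in Snf1 (SE 0.09, a 2.98-fold fall, adjusted p = 1.946e-09) and rose by 2.38 ± 0.09 in T210A (5.22-fold, 1.197e-10). In Alpha1 it rose by 0.33 ± 0.09 (adjusted p = 0.00488). The Alpha1 rise did not pass after quantile normalization (0.19) or when the Alpha1 groups were fitted by themselves (adjusted p = 0.0939), and adjusted p ran from 1.407e-05 to 0.0939 over the alternatives.

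**Figure D2:**
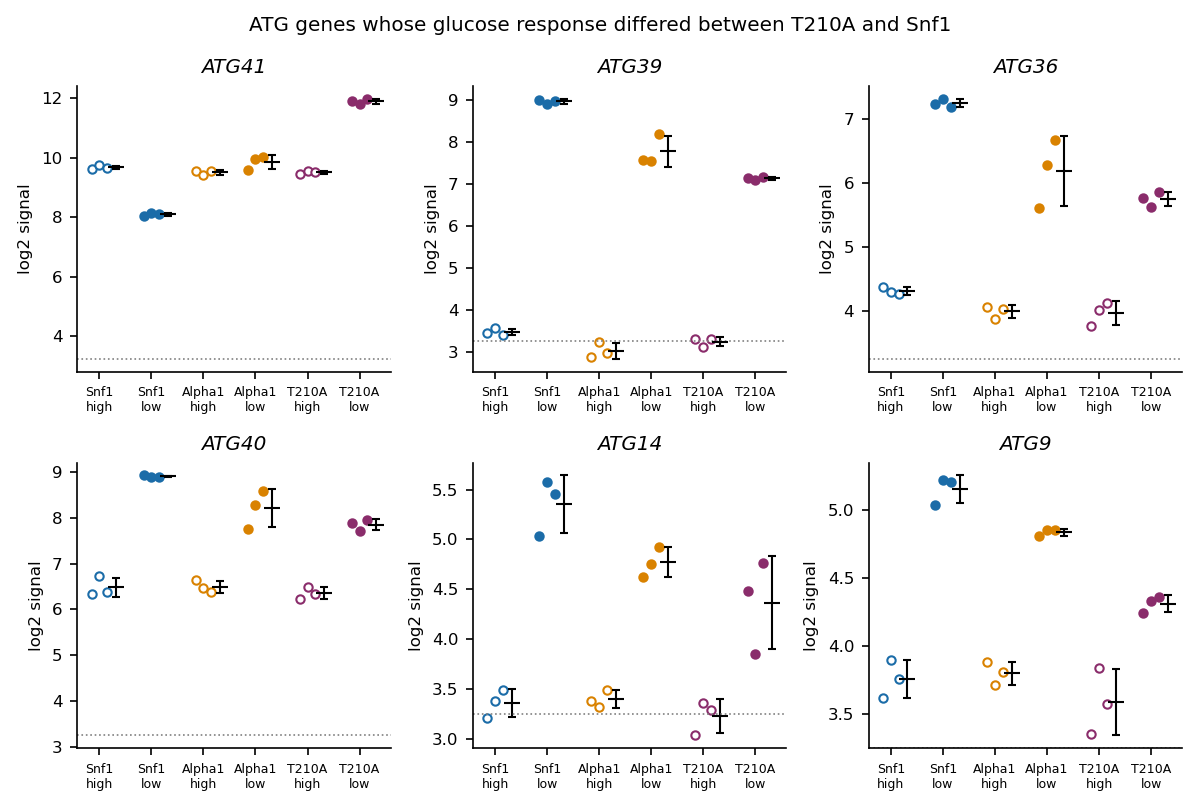
Log2 signal (y axis, from just below the floor line to the highest value of each gene) of 6 of the 7 ATG genes whose glucose response differed between T210A and Snf1 (ATG5 is drawn with the core genes) on every array, by strain and glucose level. Circles are arrays, open at high and filled at low glucose, black bars are the mean ± SD of 3 arrays, and the dotted line is the floor line at 3.25, which coincides with the lower edge for ATG9. At low glucose the Snf1 arrays are the lowest for ATG41 and the highest for the other 5 genes.

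**Figure D3:**
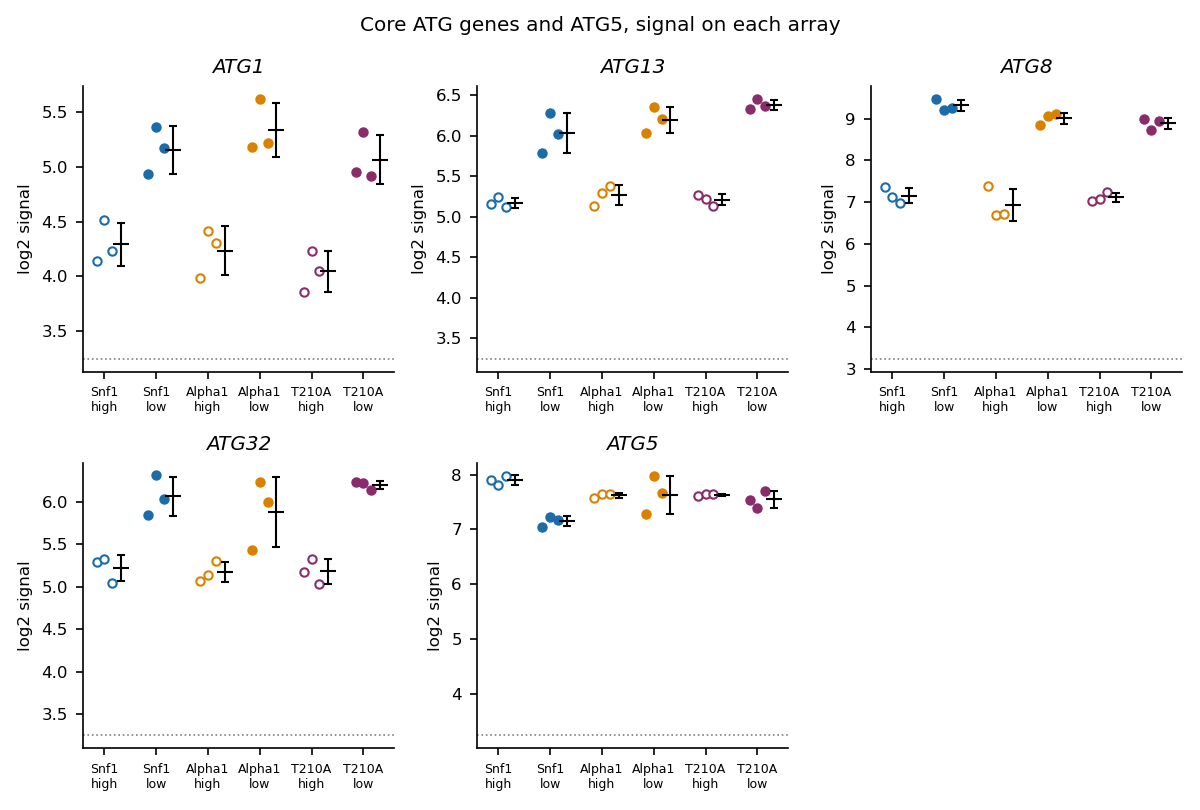
Log2 signal (y axis, from just below the floor line at 3.25, dotted) of ATG1, ATG13, ATG8, ATG32 and ATG5 on every array, by strain and glucose level. Circles are arrays, open at high and filled at low glucose, and black bars are the mean ± SD of 3 arrays. The first 4 genes are higher at low glucose in every strain, and ATG5 is lower at low glucose in Snf1, where all 3 arrays lie at 7.23 or below.

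At high glucose no difference between strains passed the limma test for an ATG gene. The difference between Alpha1 and Snf1 passed for 0 of 33 members, against 0.312% of all genes higher and 0.606% lower, and 2 members had an unadjusted p under 0.05. Between T210A and Snf1 it passed for 0 members, against 3.56% higher and 0.624% lower, and 0 had an unadjusted p under 0.05. Between Alpha1 and T210A it passed for 0 members, against 1.50% higher and 4.81% lower, and 1 had an unadjusted p under 0.05. The shares of all genes, here and elsewhere, include 261 genes on chromosome VIII, which the members leave out. Those left out of the lists read higher in T210A than in Snf1 at high glucose, for example KOG1 (7.52 against 6.58) and NPR3 (7.46 against 6.57). The shares that involve T210A at high glucose are therefore not like for like with the members. Member differences ran from -0.45 to 0.38 for Alpha1 against Snf1 and from -0.34 to 0.24 for T210A against Snf1. With the replicate number as a block, 1 member, ATG1, was lower in T210A than in Snf1 (adjusted p = 0.0351). With arrays weighted by their quality, 4, 2 and 5 members passed in these 3 comparisons.

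At low glucose the strains differed. Between T210A and Snf1, 6 members were higher in T210A and 12 lower, while 29.7% of all genes were higher and 26.5% lower. The total, 18 of 33 members against 3066 of 5449 genes, was near the background and says little about the members. ATG41 was 13.9-fold higher in T210A (3.79 ± 0.09, adjusted p = 4.048e-12). The other higher members were ATG5 (0.40), ATG11 (0.49), ATG12 (0.37), ATG13 (0.35) and ATG26 (0.46), each under 1.5-fold. Of the 6 cargo receptors 5 were lower in T210A, namely ATG39 (-1.83 ± 0.14, 3.56-fold, adjusted p = 1.787e-07), ATG36 (-1.49 ± 0.19, 2.82-fold, 1.783e-05), ATG40 (-1.05 ± 0.17, 2.08-fold, 1.093e-04), ATG34 (-0.57) and ATG19 (-0.51). ATG32 did not pass. Also lower were ATG14 (-0.99 ± 0.20, adjusted p = 7.652e-04), ATG9 (-0.84 ± 0.10, 1.244e-05), ATG4 (-0.68), ATG33 (-0.61), ATG8 (-0.43), ATG27 (-0.35) and ATG10 (-0.33). The calls of ATG5, ATG8, ATG10, ATG11, ATG12, ATG13 and ATG34 were each lost when 1 of some arrays was left out.

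Between Alpha1 and Snf1 at low glucose, 3 members were higher in Alpha1 and 7 lower, against 17.0% and 12.9% of all genes. This split rested on 1 array, since 6 were higher and 3 lower without the first low-glucose Alpha1 array. The total, 10 of 33 members against 1632 of 5449 genes, was also near the background. ATG41 was 3.35-fold higher (1.74 ± 0.09, adjusted p = 1.555e-08), ATG5 was higher by 0.48 ± 0.13, and ATG29 by 0.30 near the floor with overlapping arrays. The 7 lower members were ATG39 (-1.19 ± 0.14, adjusted p = 3.119e-05), ATG36 (-1.06 ± 0.19, 9.755e-04), ATG40 (-0.69 ± 0.17, 0.00640), ATG14 (-0.59), ATG33 (-0.53), ATG19 (-0.52) and ATG9 (-0.32), all of which were also lower in T210A than in Snf1. Both comparisons use the same Snf1 arrays. When the Alpha1 and Snf1 groups were fitted by themselves 3 members passed, and the calls of ATG5, ATG14, ATG19, ATG29, ATG33, ATG36 and ATG40 were lost. Those of ATG9, ATG14, ATG19, ATG29 and ATG33 were also lost when 1 of several arrays was left out.

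Between Alpha1 and T210A at low glucose, 3 members were higher in Alpha1 and 1 lower, against 20.8% and 20.8% of all genes. ATG9 was higher by 0.53 ± 0.10 (adjusted p = 0.00121), ATG39 by 0.64 ± 0.14 (0.00282) and ATG27 by 0.20 ± 0.07 (0.0370), and ATG41 was 4.15-fold lower (-2.05 ± 0.09, 3.329e-09). With the replicate number as a block 4 members were higher and 5 lower. After quantile normalization 7 were higher and 4 lower, which is 63.6% of calls higher in place of 75.0%. The count also rested on single arrays of Alpha1, since 9 members were higher and 1 lower without the first, and 2 were higher and 5 lower without the second. The ATG27 call held in 5 of 15 alternatives, and the ATG39 call was lost when both groups were fitted by themselves (adjusted p = 0.0734, over alternatives 8.473e-04 to 0.0734).

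**Figure D4:**
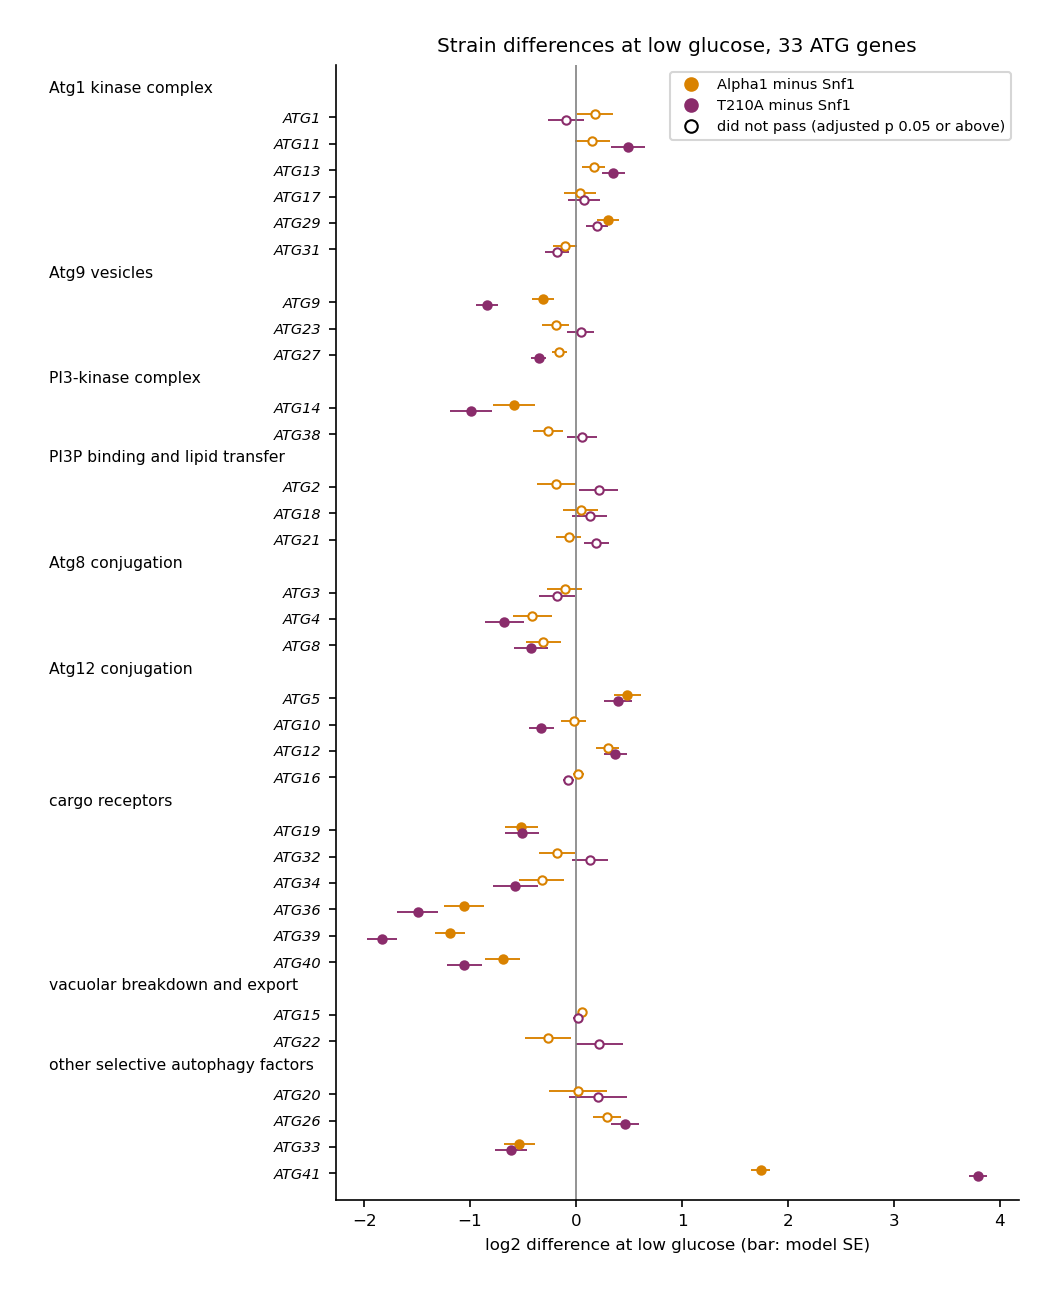
Log2 difference from Snf1 at low glucose (x axis) for the 33 ATG genes grouped by role, in Alpha1 and in T210A. Points are model estimates from 3 arrays per group, bars are the model SE, and open points did not pass the test. ATG41 lies far to the right of 0 in both strains, and ATG39, ATG36 and ATG40 lie farthest to the left in both.

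Whether a pair of strains differed in their response to glucose was tested directly, as an interaction. The T210A response exceeded the Snf1 response for 2 members and fell short of it for 5, against 21.2% and 18.3% of all genes. These counts became 4 and 9 after quantile normalization, 3 and 9 with arrays centred on their medians and 5 and 11 with array weights. The member in which the strains parted most was ATG41, at 3.96 ± 0.13 (adjusted p = 2.391e-10). ATG5, which fell in Snf1 alone, differed by 0.66 ± 0.18 (adjusted p = 0.0120). The receptors ATG39, ATG36 and ATG40 had smaller rises in T210A, by -1.60 ± 0.20 (4.103e-05), -1.15 ± 0.27 (0.00423) and -0.93 ± 0.23 (0.00656). ATG14 differed by -0.86 ± 0.28 (0.0265) and ATG9 by -0.67 ± 0.15 (0.00261). The ATG14 difference was lost in 6 of 20 alternatives, among them without the first high-glucose Snf1 array, the second or the third low-glucose Snf1 array or the second or the third high-glucose T210A array.

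The Alpha1 response exceeded the Snf1 response for ATG41 (1.91 ± 0.13, adjusted p = 6.945e-07) and ATG5 (0.76 ± 0.18, 0.0142) and fell short of it for ATG39 (-0.74 ± 0.20, 0.0257), that is for 2 and 1 members against 9.32% and 4.37% of all genes. The ATG5 difference was lost when these strains were fitted by themselves (adjusted p = 0.0522, over alternatives 3.713e-04 to 0.0522). The split of these calls depended on scaling, with 2 higher and 6 lower after quantile normalization (25.0% higher in place of 66.7%) and 2 and 4 with arrays centred on their medians (33.3%). Without the first low-glucose Alpha1 array 5 members passed, and 7 without the third array. The ATG39 difference was lost in 7 of 21 alternatives, among them without the first or the third Snf1 array at high or at low glucose or without the second Alpha1 array at high or at low glucose (adjusted p up to 0.0887). Between Alpha1 and T210A the response was larger in Alpha1 for ATG39 (0.86 ± 0.20, adjusted p = 0.00860) and smaller for ATG41 (-2.05 ± 0.13, 4.457e-07), 1 member each way against 10.9% and 9.41% of all genes, or 2 and 1 after quantile normalization (66.7% higher in place of 50.0%).

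Genes that work with the ATG proteins were read from 4 lists. The shares of all genes that rose and fell were 34.7% and 32.7% in Snf1, 34.3% and 29.2% in Alpha1 and 37.7% and 32.8% in T210A. Of 16 measured autophagy partners without an ATG symbol, 10 rose and 2 fell in Snf1, 9 and 2 in Alpha1 and 10 and 2 in T210A. The largest Snf1 responses were those of HSV2, a relative of ATG18 and ATG21, which rose by 1.17, 0.94 and 0.84 in Snf1, Alpha1 and T210A, and of the sorting nexins SNX4, by 1.16, 1.05 and 0.92, and SNX41, by 1.11, 0.72 and 1.46. VPS13, a lipid transfer protein related to Atg2, rose by 0.80, 0.68 and 0.52. Of 9 vacuolar proteases and cargo genes, 7 rose in Snf1, 6 in Alpha1 and 7 in T210A, and 0, 1 and 1 fell. The inhibitor of vacuolar proteinase B, PBI2, rose by 3.51, 3.95 and 3.39. AMS1 and APE1, which encode cargoes of the cytoplasm-to-vacuole pathway, rose as the genes of their receptors did. AMS1 rose by 3.06, 3.79 and 3.67 and APE1 by 2.84, 2.70 and 2.17. The vacuolar carboxypeptidase PRC1 rose by 1.91, 1.45 and 1.33.

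Of 14 measured regulators of ATG transcription, 7 rose and 2 fell in Snf1, 5 and 2 in Alpha1 and 6 and 5 in T210A. Against the same shares of all genes, the counts in Alpha1 and T210A are near the background and say little about the list. GIS1, which encodes a zinc-finger factor of the diauxic shift, rose by 2.57 in Snf1, 2.03 in Alpha1 and 1.25 in T210A, and its T210A response was below that of Snf1 by -1.32 ± 0.20 (adjusted p = 1.788e-04). The stress activator MSN4 rose by 1.45, 1.97 and 1.41, PHO23, a subunit of the Rpd3L deacetylase complex, by 0.79, 0.88 and 0.57, and RPH1, a demethylase described as a repressor of ATG genes, by 0.68, 1.00 and 1.11. Of 21 measured nutrient signalling genes, 13 rose and 4 fell in Snf1, 12 and 4 in Alpha1 and 11 and 5 in T210A, to be read against the same shares of all genes. The list includes SNF1, whose probe set may read plasmid transcripts and whose mean was higher at low glucose in every strain. The kinase YAK1 rose by 2.48, 2.22 and 2.32, and the protein kinase A genes TPK2, a catalytic subunit, by 2.43, 2.16 and 1.79 and BCY1, the regulatory subunit, by 1.66, 1.71 and 1.37. RAS1, an activator of that pathway, fell by 1.66, 0.89 and 1.77. The other measured catalytic subunit gene, TPK3, went the opposite way to TPK2. Its mean went from 7.43 to 6.05 in Snf1, 7.32 to 6.80 in Alpha1 and 7.60 to 6.86 in T210A. RAS2 went the opposite way to RAS1, from 9.08 to 10.28, 9.09 to 10.26 and 9.19 to 9.85.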

How the data were processed

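The 18 arrays were deposited as log2 values, 1 for each probe set, made with RMA and the affy package per the submitters' processing notes; they were used without further scaling. Of 5716 probe sets, 5498 name 1 gene and 218 none, and 12 symbols were updated. For 47 genes with several probe sets the brightest was kept. The number of arrays limits the precision.

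A mean for each of the 6 groups was fitted with limma 3.58.1 in R 4.3.3, with 12 residual and 1.18 prior degrees of freedom, and 12 comparisons were tested. P-values were Benjamini-Hochberg adjusted over 5449 genes. The pooled SE understates the spread in Alpha1 at low glucose.

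The members and lists were chosen with earlier results of these data known. Values of every array are given for members called with the largest differences between strains' glucose responses and for ATG1, ATG8, ATG9, ATG13 and ATG32. Of each further list, at most 4 genes with the largest called Snf1 response are named. Beside them stand SNF1, TPK3, RAS2 and, from chromosome VIII, NVJ1, DAP2, KOG1, SCH9 and NPR3. Genes on chromosome VIII were left out of the lists.

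Labels number the replicates alike. Same-numbered arrays deviated together (every correlation over 0.1) in 8 of 15 pairs of groups, so a replicate block was an alternative, next to other scalings, an intensity trend, array weights, a filter on dim genes (22 of 33 members passed it), the compared groups alone and each array left out. A promoter motif search was not run, and sequences were not analysed here.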

Additional observations from a re-analysis of the deposited data

Results flagged for a closer look

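The glucose response (low minus high glucose, log2 ± SE, 3 arrays per group) of 7 ATG genes differed between strains in limma's test of the difference itself. For T210A against Snf1, 7 of 33 members passed, against 2153 of 5449 genes. For Alpha1 against Snf1 it was 3 members against 746 genes, and for Alpha1 against T210A 2 members against 1106 genes. In the main fit the share of members was below that of all genes each time. For ATG41 the T210A response exceeded the Snf1 response by 3.96 ± 0.13 (adjusted p = 2.391e-10) and the Alpha1 response exceeded it by 1.91 ± 0.13 (6.945e-07), and Alpha1 differed from T210A by -2.05 ± 0.13 (4.457e-07). For ATG39 the corresponding values were -1.60 ± 0.20 (4.103e-05), -0.74 ± 0.20 (0.0257) and 0.86 ± 0.20 (0.00860). ATG5 differed from Snf1 by 0.66 ± 0.18 in T210A (0.0120) and 0.76 ± 0.18 in Alpha1 (0.0142), the latter lost when both strains were fitted by themselves (0.0522). Between T210A and Snf1 the differences were -1.15 ± 0.27 for ATG36 (0.00423), -0.93 ± 0.23 for ATG40 (0.00656), -0.86 ± 0.28 for ATG14 (0.0265) and -0.67 ± 0.15 for ATG9 (0.00261). The comparisons share arrays and are not independent of each other.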

How the results depend on the processing

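Over 62 named differences that passed, 986 alternatives were computed, of which 942 kept the call, 44 lost it and 0 changed its direction. Many of the named members were picked for the size of their called response differences, so these numbers do not speak for the other calls. The number of ATG genes that passed stayed within 1.5 times its value for the glucose responses (19 to 29 in Snf1, 20 to 29 in Alpha1, 20 to 29 in T210A), for T210A against Snf1 at low glucose and for the Alpha1 against T210A response. Where it did not, array weights gave 4, 2 and 5 at high glucose (Alpha1 against Snf1, T210A against Snf1, Alpha1 against T210A) in place of 0, and the replicate block gave 1 for T210A against Snf1. With the replicate block no named difference was lost. Besides the counts given here it added ATG12 and ATG18 in the Snf1 glucose response, ATG23 in that of T210A, and ATG1, ATG12 and ATG26 in Alpha1 against Snf1 at low glucose (6 higher and 7 lower), and it changed no other ATG call in a comparison of 2 groups. For Alpha1 against Snf1 at low glucose, 10 became 5 with array weights, 3 with the compared groups alone and 5 to 10 without 1 array (6 without the second low-glucose Snf1 array, 5 without the third, 5 without the second Alpha1 array). For Alpha1 against T210A at low glucose, 4 became 9 with the replicate block, 11 with quantile normalization, 9 with arrays centred on their medians, 2 with dim genes left out (fewer genes tested), 2 with the compared groups alone and 3 to 10 without 1 array. For the Alpha1 against Snf1 response, 3 became 8 with quantile normalization, 6 with centring, 1 with the compared groups alone and 2 to 7 without 1 array. For the T210A against Snf1 response, 7 became 12 with the replicate block, 13 with quantile normalization, 12 with centring, 16 with array weights, 12 with the compared groups alone and 6 to 9 without 1 array. The cause was not tested. The median member difference between T210A and Snf1 at low glucose was 0.01, and -0.15 after quantile normalization. Low signal limits ATG15, ATG16 and ATG29, which were close to the floor in every group.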
